A study of Mus musculus with 51 samples.

Results

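The genes described here are a list of 37 interferon response genes of the mouse, followed across mammary glands, hyperplastic cells and tumors of Wap-Cre;Etv6-NTRK3 mice. A gene entered through array probe sets that are annotated to its symbol alone, and the brightest of these on average stood for it. This gave 35 of the 37 genes, out of 18192 genes with such a probe set. Isg15, whose probe set carries 2 symbols, and Ifi44 were not analysed here. All 35 genes passed the filter on low values, and 28 of them were above the floor on every array. Values are log2 probe set intensities with a floor at 5.00, and a difference of 1 is a doubling.

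RNA was measured on 51 Affymetrix mouse arrays, which make 50 replicates in 6 groups. In the model Wap-Cre, active in mammary epithelium, switches on a conditional Etv6-NTRK3 knockin allele in which Etv6, a transcription factor gene, is fused to the part of NTRK3 that encodes its kinase domain, and a floxed lacZ reporter at Rosa26 (Rosa-Stop-lacZ) marks the recombined cells. Sorted lacZ-positive cells came from hyperplastic glands (4 mice, 1 replicate each), from primary tumors (8 tumors of 6 mice) and from transplanted tumors (7 replicates from 5 mice of origin, at passages 1 to 4). Whole tissue, not sorted, was taken from primary tumors (22 tumors of 14 mice), from transplanted tumors (4 replicates from 2 mice of origin, CR90 and CR115) and from mammary glands of wild-type mice (5 mice). The transplants grew in RAG2-/- recipients, which lack mature T and B cells. The labels give no ages, and they do not say whether the wild-type mice carried Wap-Cre or the reporter. Tumors of 1 mouse share that mouse, so the tests treated mouse of origin as a random block.

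Interferons are secreted proteins that cells make after their sensors meet viral or misplaced nucleic acid. Type I interferon binds Ifnar1 and Ifnar2, the receptor activates the kinases Jak1 and Tyk2, and a complex that holds Stat2 and Irf9 enters the nucleus and binds the interferon-stimulated response element (ISRE) of its target genes. Many of the targets block steps of viral growth, others sense nucleic acid or present antigen, and a few, such as Usp18, damp the signal. In tumors the same response has been described both in cancer cells and in the immune and stromal cells around them.

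Promoters of members were taken from the RefSeq table of build GRCm38.p6, which held 27 of the 35 genes. The 4 windows below are shown because the results turn on these genes. Ifit3 and Oas1a varied closely with the list. Cxcl10 varied with it but was lower in unsorted tumors, though not in sorted ones, than in glands. Irf7 is a member whose window holds no match to the motifs searched. Each is the 250 bases before the start of the gene, written 5′ to 3′ on the gene's strand, with capitals for matches to the ISRE-type motif (GAAA, any 2 bases, GAAA, on either strand) and to the kB-type motif (GGGA, any 2 bases, TTCC). The windows lie at chr19:34583279-34583528 (Ifit3, plus strand), chr5:120907526-120907775 (Oas1a, minus strand), chr5:92348890-92349139 (Cxcl10, minus strand) and chr7:141266425-141266674 (Irf7, minus strand).
Ifit3: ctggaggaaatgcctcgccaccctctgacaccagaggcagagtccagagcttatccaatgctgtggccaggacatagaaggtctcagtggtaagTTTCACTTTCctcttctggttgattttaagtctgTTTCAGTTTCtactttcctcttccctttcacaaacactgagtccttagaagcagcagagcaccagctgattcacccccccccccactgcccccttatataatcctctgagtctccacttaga
Oas1a: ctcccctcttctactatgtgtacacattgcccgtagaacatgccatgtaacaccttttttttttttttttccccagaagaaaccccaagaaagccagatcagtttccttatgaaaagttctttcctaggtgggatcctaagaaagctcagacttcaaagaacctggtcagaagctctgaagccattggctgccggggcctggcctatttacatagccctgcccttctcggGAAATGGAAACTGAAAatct
Cxcl10: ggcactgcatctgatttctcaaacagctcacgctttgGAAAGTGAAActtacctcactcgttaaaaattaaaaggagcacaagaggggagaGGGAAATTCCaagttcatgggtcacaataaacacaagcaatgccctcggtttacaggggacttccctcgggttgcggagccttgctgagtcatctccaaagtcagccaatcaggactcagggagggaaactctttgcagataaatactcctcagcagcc
Irf7: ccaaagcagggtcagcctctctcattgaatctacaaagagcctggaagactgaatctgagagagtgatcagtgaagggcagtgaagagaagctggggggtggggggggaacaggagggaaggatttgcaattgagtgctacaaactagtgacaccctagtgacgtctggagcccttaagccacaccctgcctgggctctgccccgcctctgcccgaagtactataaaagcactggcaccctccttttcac
Ifit3 carries 2 separate ISRE-type matches on its minus strand, Oas1a carries 2 that overlap directly before the start, and Cxcl10 carries 1 further upstream followed by a kB-type match. Over windows of 300 bases (250 before and 50 after the start), 13 of the 27 matched members held the ISRE-type motif, which is 48.1%, against 3.44% of 32851 windows in the table. The kB-type motif stood in 4 members (Cxcl10, Gbp2, Ifit2 and Ifitm3), or 14.8% against 1.47%, and the GAS-type motif TTCNNNGAA in 7 members, or 25.9% against 8.30%. The units differ: a member counts if any of its windows holds a match (31 windows for the 27 genes), whereas the share over the table is of single windows. Both strands were searched, and the windows of the neighbouring genes Psmb9 and Tap1 overlap by 275 bases. A match is a run of letters and no measured binding site.

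The list as a whole was lowest in wild-type glands and in the unsorted transplants, and it varied most widely among unsorted primary tumors. The mean over the 35 genes was 7.47 ± 0.33 (SD, n = 5) in the glands, with a lowest, median and highest gland of 7.13, 7.32 and 7.97. It was 8.22 ± 0.37 (n = 4) in sorted hyperplastic cells and 7.94 ± 0.65 (n = 8) in sorted primary tumors. Unsorted primary tumors reached from 7.02 to 9.50 around a median of 8.62 (mean 8.36 ± 0.81, n = 22). Of these 22 tumors, 14 lay above the highest gland and 8 did not. Sorted transplanted tumors held the highest group mean, 8.78 ± 0.60 (n = 7), and unsorted transplanted tumors the lowest, 7.31 ± 0.80 (n = 4). Each of the 6 ranges overlapped with that of another group, and these means are descriptions with no test.

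**Figure D1:**
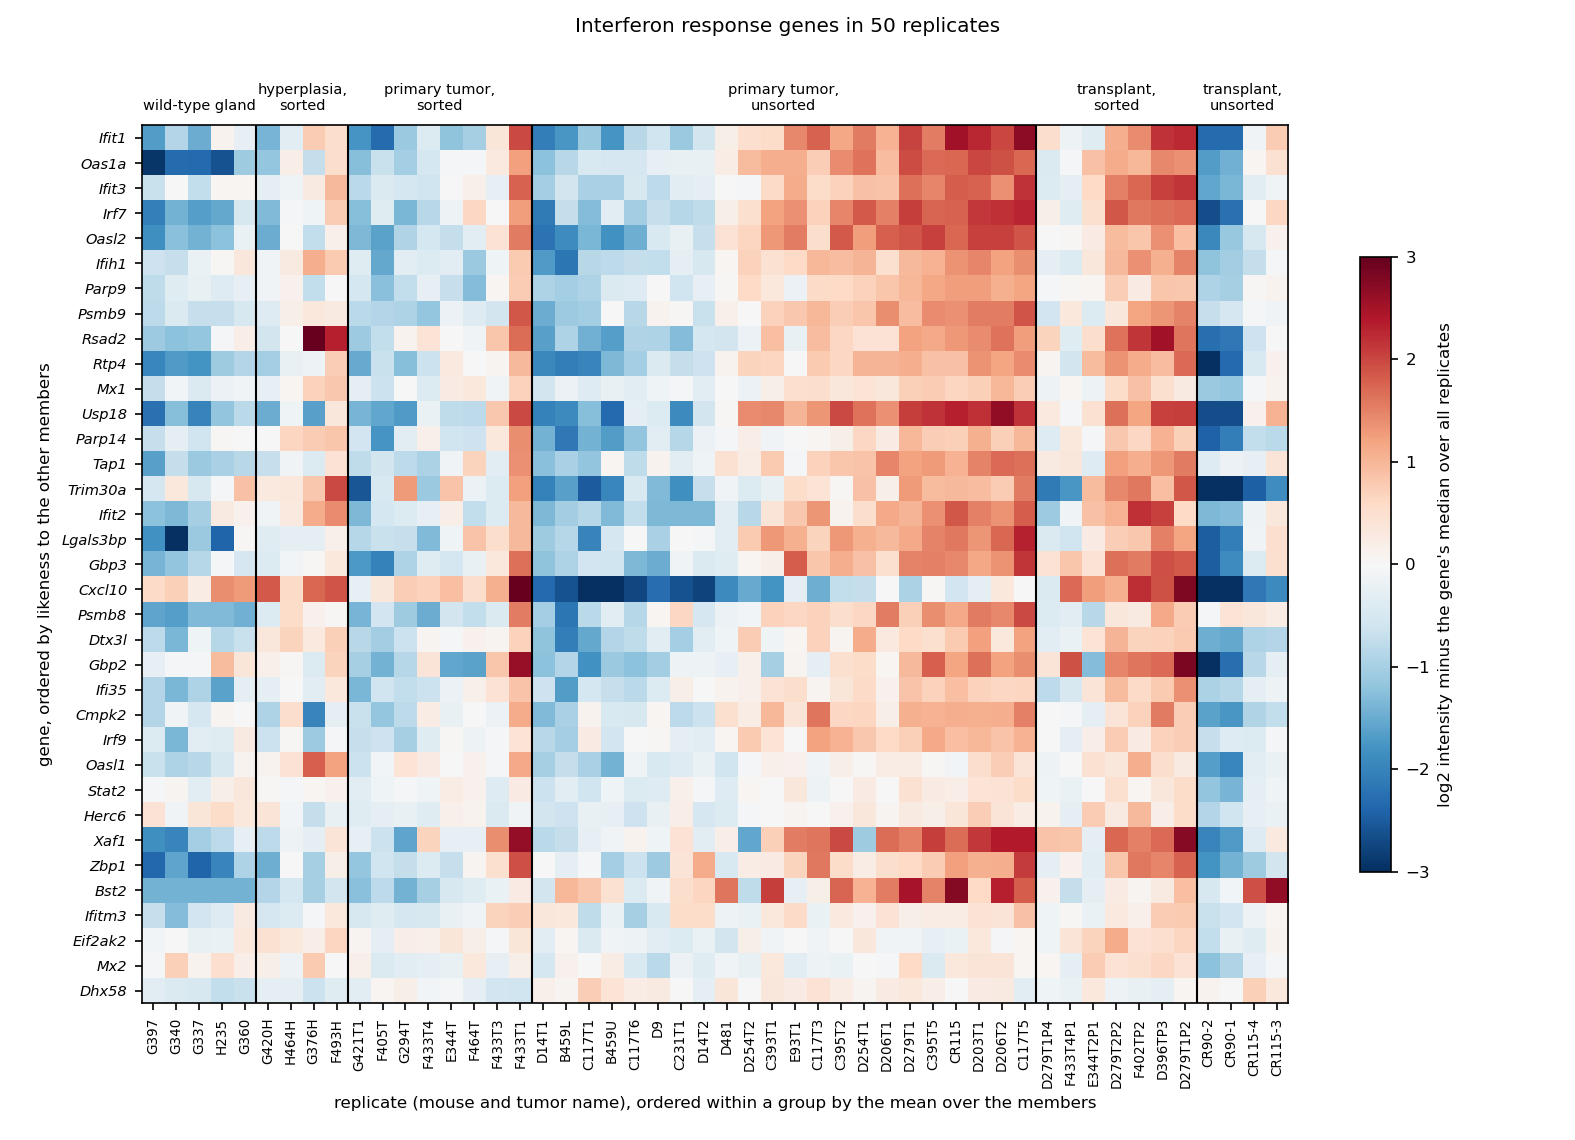
Log2 intensity of the 35 genes (rows, ordered by likeness to the other members) in 50 replicates (columns, by group and by rising mean over the members), as the difference from each gene's median over all replicates, in log2 units. Most rows change colour together along the 22 unsorted primary tumors, whereas the row of Cxcl10 is blue in the unsorted primary tumors with a low mean and mostly red in glands and sorted cells.

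**Figure D2:**
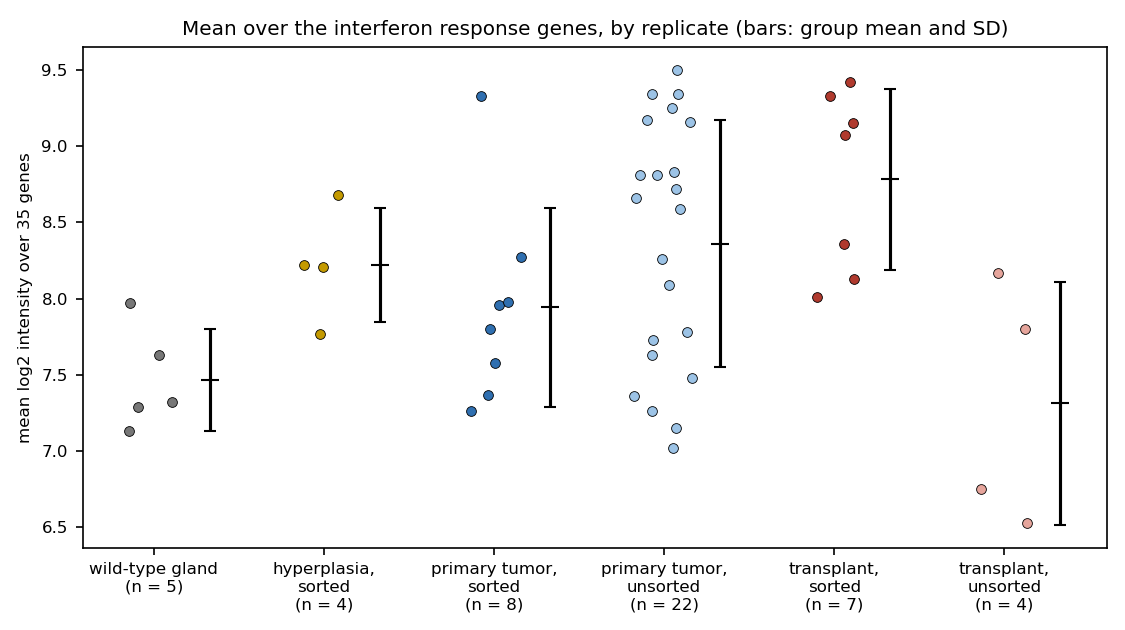
Mean log2 intensity over the 35 genes (vertical axis) for each replicate (points) in the 6 groups, with the group mean and SD as bars. The 5 glands lie between 7.13 and 7.97, and the 22 unsorted primary tumors spread from 7.02 to 9.50.

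The labelled tissues held epithelial markers in every group: Krt8, a luminal keratin, was at or above 11.20 and Epcam, an epithelial adhesion protein, at or above 9.82 in every replicate. Genes of macrophages were also present in the sorted cells. Csf1r, the receptor for the macrophage growth factor, was at 11.60 to 13.36 in sorted hyperplastic cells and at 8.20 to 12.75 in sorted primary tumors, against 7.96 to 10.21 in unsorted primary tumors. Array medians lay between 42.9 and 57.8 on the linear scale, and precision is limited by how many arrays a group has. In bulk samples, fewer cells of a type and less RNA per cell cannot be told apart.

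The comparison of whole tumors with whole normal glands asked which members separate the tumors from the tissue they grew in. In unsorted primary tumors 16 of the 35 genes rose, 1 fell and 18 did not pass the test, by limma with an adjusted p under 0.05. Oas1a rose 7.81-fold, Bst2 at least 5.17-fold, and Cxcl10 fell 4.76-fold. Over all 15128 genes tested, 29.5% were higher and 21.6% lower in this comparison, so a call by itself was common. The median difference of the members was 0.74, against 0.10 over all genes, and 28 of the 35 differences were positive. Without the gland of mouse G340 the calls of Irf9 and Ifitm3 were lost (adjusted p = 0.128 and 0.12 in limma). This gland was the lowest in both genes (6.61 and 10.78). Its Gapdh ratio (log2 of the 3′ over the 5′ control probe set) was 1.14. The other glands had -0.30 to 0.14 and the unsorted primary tumors at most 0.59. The part of this ratio was not tested here.

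Among the antiviral effectors, Oas1a stood out. It encodes an oligoadenylate synthetase that switches on RNase L when it meets double-stranded RNA. The glands had 6.47, 7.74, 5.90, 6.49 and 6.19, and the tumors had 7.57, 9.75 and 10.82 as lowest, median and highest values. The groups overlapped only in that 1 tumor lay below the highest gland, and the fitted difference was 2.96 ± 0.46 (SE, adjusted p = 6.29e-07, limma). Its relative Oasl2 rose by 1.78 ± 0.57 (adjusted p = 0.00789, limma).

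Bst2 encodes tetherin, which holds budding virus at the cell surface. It was at the floor in all 5 glands and above it in all 22 tumors, where the lowest, median and highest values were 5.65, 7.32 and 9.18. The groups did not overlap, which held for 6.71% of all genes in this direction and 7.57% in the other. The fitted difference was 2.39 ± 0.41 (adjusted p = 4.7e-06, limma), and the fold is a lower bound because the glands lie at the floor.

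Other effectors showed wider overlap. Lgals3bp, a secreted galectin-binding glycoprotein, had 8.45, 9.60, 7.74, 6.48 and 7.16 in the glands and 7.55 to 11.86 in the tumors (median 10.44), and rose by 2.16 ± 0.53 (adjusted p = 0.000605, limma). Xaf1, a binding partner of the apoptosis inhibitor XIAP, had 5.96, 6.73, 5.13, 5.00 and 6.20 in the glands and a median of 7.55 in the tumors, and rose by 1.85 ± 0.53 (adjusted p = 0.00328, limma). In Xaf1 17 of 22 tumors lay above the highest gland, and the lowest tumors lay within the gland range. Averaging the 2 probe sets of Xaf1 ended this call, with a difference of 0.30 and an adjusted p of 0.487 in limma. Rtp4, Ifi35 and Ifitm3, which blocks viral entry, rose by 1.55, 1.15 and 0.68. Ifit3, which binds viral RNA together with its family members, had 7.26, 8.05, 7.34, 7.99 and 8.07 in the glands and 6.98, 8.57 and 10.17 as lowest, median and highest tumor values, and its difference of 0.72 ± 0.48 did not pass the test (adjusted p = 0.212, limma).

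The factors of the pathway itself moved unequally. Irf7, the factor that amplifies the production of interferon, had 7.05, 8.23, 6.64, 7.28 and 7.17 in the glands and 6.58, 9.65 and 10.99 as lowest, median and highest in the tumors. The groups overlapped, 15 of 22 tumors lay above the highest gland, and the difference was 2.04 ± 0.58 (adjusted p = 0.00291, limma). Irf9, the DNA-binding part of the response complex, rose by 0.77 ± 0.27 (adjusted p = 0.0167, limma). Its partner Stat2 lay at 6.80 to 7.48 in the glands and at 6.49 to 7.68 in the tumors, with a difference of -0.04 ± 0.17 (adjusted p = 0.848, limma). That holds for its brightest probe set. On the second set of Stat2 the glands had 6.14, 6.19 and 6.69 as lowest, median and highest, and the tumors 5.65, 6.67 and 8.25. The second set correlated with the other members at 0.89 and with the first set at 0.65. Usp18, which removes Isg15 from proteins and damps receptor signalling, had 5.65, 6.84, 5.43, 6.39 and 6.47 in the glands and a tumor median of 9.01, and rose by 2.09 ± 0.67 (adjusted p = 0.00824, limma).

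Sensors and antigen presentation made up the rest of the rises. Zbp1, a sensor of Z-form nucleic acid, had 5.06, 6.55, 5.12, 5.88 and 5.50 in the glands and 6.37, 7.92 and 9.56 as lowest, median and highest in the tumors, and 20 of 22 tumors exceeded every gland. Its difference was 2.21 ± 0.43 (adjusted p = 3.87e-05, limma). Psmb8, a catalytic subunit of the immunoproteasome, was narrow in the glands (7.66, 7.55, 7.41, 7.33 and 7.66) and wide in the tumors (6.83, 9.60 and 10.98), where 21 of 22 lay above the highest gland. It rose by 1.85 ± 0.45 (adjusted p = 0.000544, limma). Its partner subunit Psmb9 rose by 1.09 and the peptide transporter subunit Tap1 by 1.50, and Psmb9 lost its call in 8 of the 27 fits that left out 1 replicate. Gbp2, a guanylate-binding GTPase, did not separate the groups (8.30 to 9.49 in glands, 6.74 to 10.35 in tumors, difference -0.16 ± 0.54, adjusted p = 0.819, limma).

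Cxcl10 was the single member that fell. It encodes a chemokine that draws in T cells through the receptor Cxcr3. The glands had 8.94, 9.99, 9.28, 9.43 and 10.11, and the tumors had 5.00, 7.23 and 9.04. No tumor lay above the highest gland and 21 of 22 lay below the lowest. The difference was -2.25 ± 0.53 (adjusted p = 0.000411, limma).

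**Figure D3:**
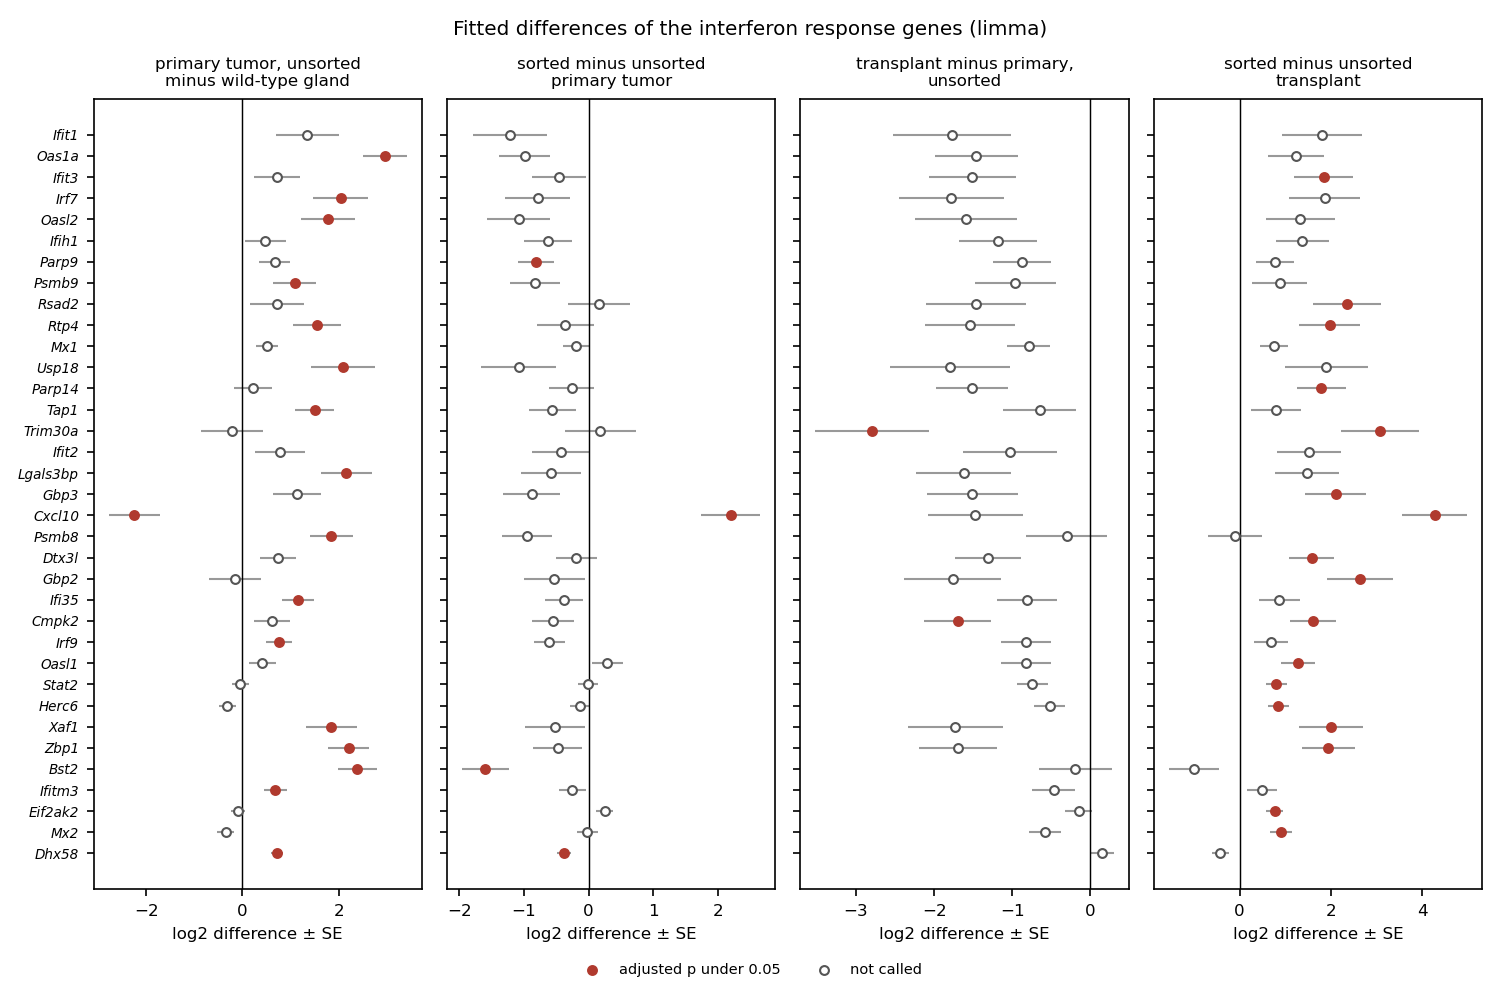
Fitted log2 differences with SE (horizontal axis) for the 35 genes (vertical axis, ordered by likeness) in 4 comparisons; filled points have an adjusted p under 0.05. Cxcl10 lies at -2.25 in the tumor against gland panel and at 2.20 in the sorted against unsorted panel, opposite to most of its neighbours in both.

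Across the 22 unsorted primary tumors the members varied together. The median correlation between pairs of members was 0.80 over 595 pairs, and it was 0.80 again over the 14 mouse means. With the mean of the other members, 19 genes correlated at 0.90 or above, led by Ifit1 (r = 0.98), Oas1a (0.98) and Ifit3 (0.97). Cxcl10 reached 0.90 although its level in these unsorted tumors lay below the glands. The genes under 0.60 were Bst2 (0.58), Ifitm3 (0.47), Eif2ak2 (0.46), Mx2 (0.45) and Dhx58 (-0.20). These correlations are descriptions over tumors that share mice and arrays that share a scaling. The members were chosen with earlier results of these data known, and no pairs of other genes were set beside them. The median member ranged over 3.25 log2 units among the tumors.

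Separate tumors of the same mouse could lie far apart. Mouse C117 gave 4 tumors with list means of 7.26, 7.48, 8.72 and 9.50, which spans most of the range of the whole group. Between its lowest and highest tumor 34 of the 35 genes were higher in the latter, Lgals3bp by 4.31, and 1 gene, Dhx58, was lower (-1.05). Over all genes the median difference of this pair was 0, and 43.9% were higher. By rising list mean, the C117 tumors had 7.97, 9.36, 8.49 and 9.43 as means over macrophage and myeloid markers. Over fibroblast markers they had 8.47, 10.75, 8.48 and 7.59, and over epithelial markers 10.83, 11.54, 9.74 and 11.31. The part of these cells in the range was not tested. The other 5 mice with several unsorted tumors had narrower ranges, from 0.21 in mouse B459 to 0.76 in mouse D14. The 2 arrays of 1 tumor (mouse CR115, averaged here) differed by a median absolute value of 0.50 per member. That is a measure of single members, whereas the ranges are of list means, so the size of one does not gauge the other. Mouse means reached from 7.26 in B459 to 9.34 in D203. In the sorted set, tumor 1 of mouse F433 had a mean of 9.33 and tumor 4 a mean of 7.80, with 34 of 35 genes higher in tumor 1 and Psmb9 by 3.03. Of all genes 48.6% were higher in tumor 1, with a median difference of 0. Means over macrophage and myeloid markers were 9.44 in tumor 1 and 8.31 in tumor 4. Those over fibroblast markers were 7.54 and 7.07, and those over epithelial markers 11.41 and 11.64. The part of these cells was not tested here either.

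**Figure D4:**
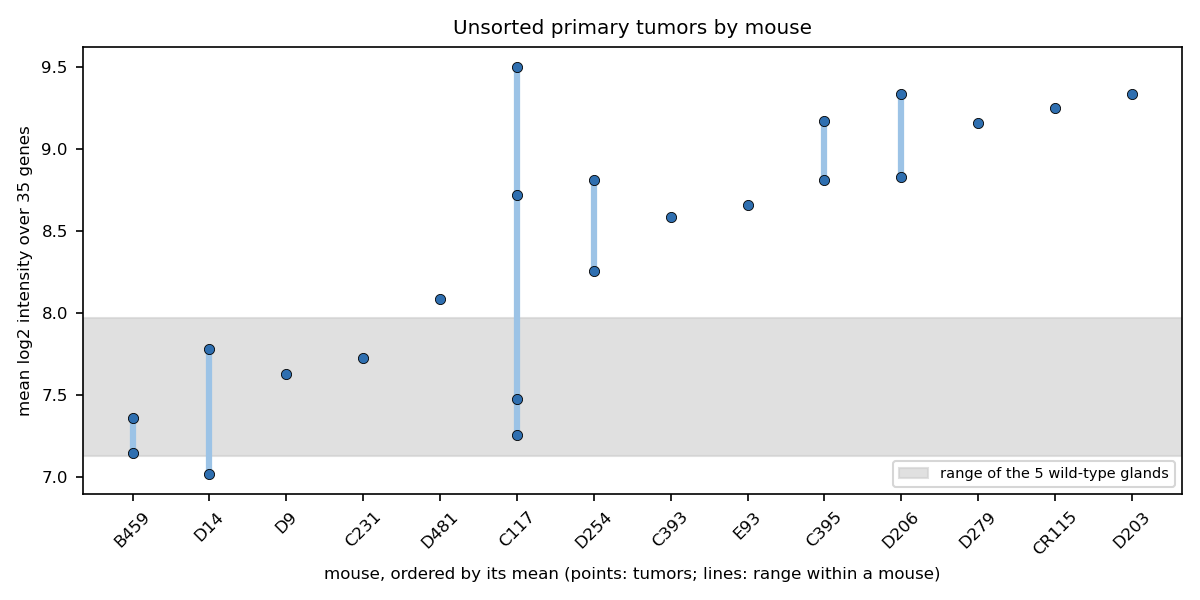
Mean log2 intensity over the 35 genes (vertical axis) for the 22 unsorted primary tumors (points) of 14 mice (horizontal axis, ordered by mouse mean), with lines for the range within a mouse and a grey band for the 5 glands. The 4 tumors of mouse C117 spread from 7.26 to 9.50, from inside the gland band to the top of the plot.

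Several members parted from the list, and for some of them other probe sets of the gene gave another picture. Dhx58 encodes an RNA helicase of the RIG-I family. Its brightest probe set rose in tumors by 0.72 ± 0.13 over the glands (adjusted p = 1.21e-05, limma) with no overlap, from a gland range of 6.14 to 6.54 to a tumor range of 6.58 to 7.63, and it correlated with the other members at -0.20. The second probe set of Dhx58 correlated with the other members at 0.95 and with the first at 0.18. On that second set the glands had a median of 5.07 and the unsorted primary tumors 5.00, 6.94 and 7.86 as lowest, median and highest. For Xaf1 the order was reversed: the brightest set correlated with the other members at 0.76 and the second at 0.23, and on the second set the glands (7.57 to 8.56) had a higher median than the tumors (8.26 against 6.19). Both unsorted tumors of mouse D254 were low in Xaf1, at 5.90 and 5.41. Mx1 and Mx2, dynamin-like antiviral GTPases, are entered as transcribed pseudogenes in the RefSeq table.

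**Figure D5:**
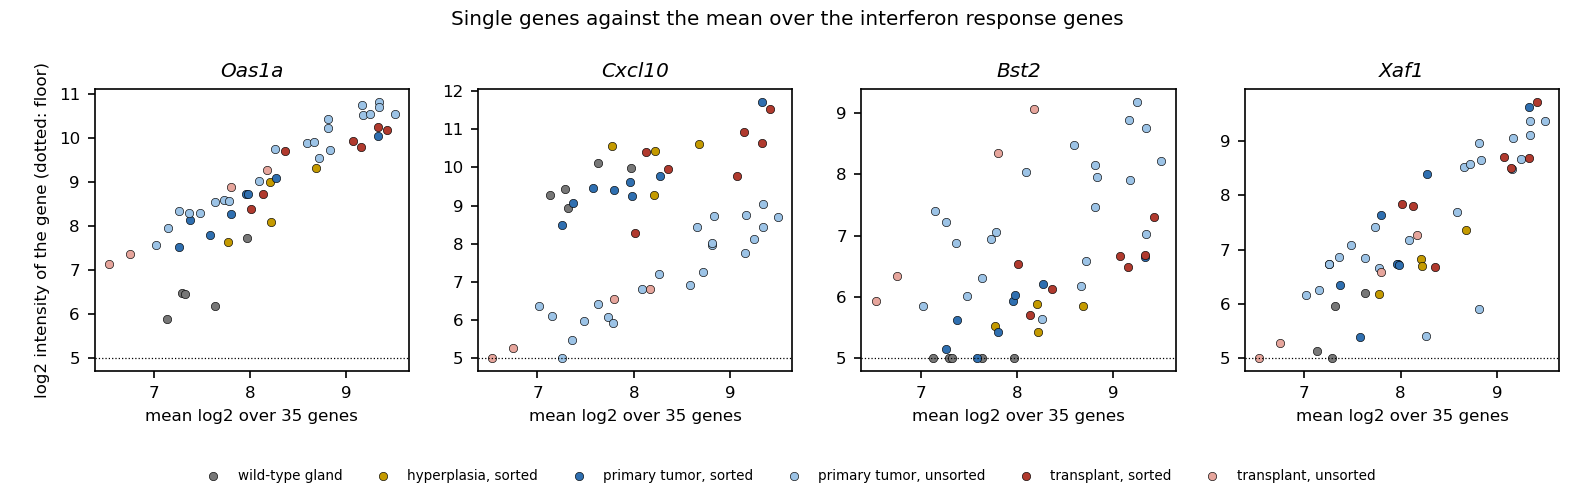
Log2 intensity of Oas1a, Cxcl10, Bst2 and Xaf1 (vertical axes, dotted line at the floor of 5.00) against the mean over the 35 genes (horizontal axis) for 50 replicates coloured by group. Oas1a follows the mean with the glands set apart below, Cxcl10 lies higher in glands and sorted cells than in most unsorted tumors of a like mean, and Bst2 is at the floor in all 5 glands.

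The comparison of sorted primary tumors with sorted hyperplastic cells asked which members separate tumor cells from hyperplastic cells. None of the 35 genes was called in either direction by limma (0 at an unadjusted p under 0.05 higher, 1 lower), where 1.30% of all genes were called higher and 2.51% lower (3.80% in all). The median difference was -0.20, against 0.01 over all genes, with 14 genes positive and 21 negative. Rsad2, which encodes the antiviral enzyme viperin, had 12.28, 10.99, 8.09 and 8.63 in the hyperplastic cells and 7.56 to 10.32 in the sorted tumors. Irf7 had 8.58, 9.47, 7.37 and 8.65 in the hyperplastic cells and 7.34 to 9.95 in the tumors, with a difference of 0.01 ± 0.71 (adjusted p = 0.999, limma). For Cxcl10 the hyperplastic values were 10.43, 10.61, 10.55 and 9.28 and the tumor values 8.48 to 11.71 (difference -0.73 ± 0.65, adjusted p = 0.608, limma). The differences of Ifit3 (-0.20), Stat2 (-0.05), Gbp2 (-0.61) and Psmb8 (-0.64) did not pass either. Beside these values, the summed linear intensity of 14 macrophage and myeloid markers was 22762 to 52313 in hyperplasia and 4259 to 40499 in the sorted tumors, none of these markers was at the floor throughout a group, and 1 of 14 was called lower. All 6 B and plasma cell markers fell (median -2.06), as did 3 of 7 fibroblast markers (median -2.38), 3 of 7 endothelial markers (median -0.98) and 3 of 9 T and NK cell markers (median -0.68). The summed intensity of the B and plasma cell markers was 1013 to 19878 in hyperplasia and 305 to 2031 in the tumors, and that of the fibroblast markers 14702 to 22221 and 1604 to 28444. The part of these cells in the result was not tested. The spike-in signal, added with the hybridization controls, was 8.80 to 12.39 in hyperplasia and 8.08 to 10.16 in the tumors. Its highest hyperplastic values, 12.39 and 11.31, were those of mice G376 and F493, which also had the Rsad2 values of 12.28 and 10.99. The part of the spike-in signal was not tested beyond a fit with it as a covariate and a fit without the hyperplastic cells of both mice.

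The comparison of sorted with unsorted primary tumors asked how lacZ-positive cells differ from whole tumors. Cxcl10 rose 4.58-fold in the sorted cells, and Bst2, Dhx58 and Parp9 fell. That is 1 of 35 genes higher and 3 lower, where 9.64% of all genes were higher and 15.7% lower (25.3% in all). The median difference was -0.48 against -0.05 over all genes, with 30 of 35 negative. No mouse gave both kinds of sample, so sorting and mice cannot be told apart.

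Cxcl10 had 8.48, 9.42 and 11.71 as lowest, median and highest in the 8 sorted tumors, against 5.00, 7.23 and 9.04 in the 22 unsorted tumors. The ranges overlapped only at their ends, and the difference was 2.20 ± 0.46 (adjusted p = 0.000374, limma). Bst2 had 5.00, 5.78 and 6.65 in the sorted tumors, against 5.65, 7.32 and 9.18, and fell by 1.60 on the log2 scale (SE 0.36, adjusted p = 0.0008, limma). Dhx58 and Parp9, the partner of the ubiquitin ligase Dtx3l, fell by 0.38 and 0.82. The call of Parp9 was lost without the sorted tumor of mouse F464 or of mouse F405 (adjusted p = 0.076 and 0.0791, limma). That of Dhx58 was lost without mouse F433 (adjusted p = 0.0739, limma) and with the sorted arrays chosen by their Gapdh ratio (difference -0.24, adjusted p = 0.204, limma). Irf7 (-0.79 ± 0.50), Ifit3 (-0.46 ± 0.42), Gbp2 (-0.53 ± 0.47), Psmb8 (-0.95 ± 0.39) and Stat2 (-0.01 ± 0.15) did not pass the test.

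The count in this comparison turned on single tumors. Without tumor 1 of mouse F433 10 members were called, and without all 3 sorted tumors of that mouse 11 were called, 1 higher and 10 lower. Without 1 of the unsorted tumors of mouse B459 (labelled L) or tumor 6 of mouse C117 the count was 7 each time. In the same comparison 6 of 14 macrophage and myeloid markers rose and none fell, among them Adgre1 (1.27 ± 0.34), Cd14 (1.62 ± 0.32) and Csf1r (1.96 ± 0.50). The summed linear intensity of the 14 markers was 4259 to 40499 in sorted and 3132 to 18015 in unsorted tumors. Of 7 fibroblast markers 2 rose, and of 8 epithelial markers 2 fell. The part of these cells in the differences of Cxcl10 and the other members was not tested.

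Transplanted tumors were compared with primary tumors to ask whether the response is kept on transfer into RAG2-/- hosts. In sorted cells all 35 differences were positive, with a median of 0.60 against 0.01 over all genes, but no member and 0 of all 15128 genes passed limma's adjusted threshold (5 members higher and 0 lower at an unadjusted p under 0.05, against 2.15% and 1.84% of genes). Because the members vary together, such counts of signs are not counts of separate observations. Gbp2 had the values 7.24, 10.15 and 11.38 as lowest, median and highest in the 7 sorted transplants, against 6.95, 7.62 and 11.17 in the 8 sorted primaries, a difference of 1.40 ± 0.52 (adjusted p = 1, limma). The differences were 0.88 ± 0.56 for Irf7, 0.79 ± 0.47 for Ifit3 and 0.60 ± 0.52 for Cxcl10. Mice E344 and F433 contributed to both groups.

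In unsorted tissue the transplants lay lower, with 2 calls. Trim30a and Cmpk2 fell, none rose, and 34 of the 35 differences were negative, with a median of -1.31 against 0 over all genes. Of all genes 0.740% were called higher and 0.192% lower (0.932% in all). Trim30a, a tripartite-motif protein, had 5.72 and 5.89 in the recipients of mouse CR90 (recipients 1 and 2) and 7.38 and 6.79 in those of mouse CR115 (recipients 3 and 4), against 6.75, 9.21 and 10.82 as lowest, median and highest in the 22 primaries. It fell by 2.79 on the log2 scale (SE 0.73, adjusted p = 0.0458, limma). Cmpk2, a mitochondrial nucleotide kinase, had 5.24, 5.37, 6.24 and 6.08 in the same order, against 5.65 to 8.59, and fell by 1.70 (SE 0.43, adjusted p = 0.0385, limma). The count of calls was 0 without any single one of recipients 1, 2 and 4, without mouse CR90, without the CR115 primary or without tumor 1 of mouse D279, and 5 without mouse CR115. These 5 do not include Trim30a (adjusted p = 0.0742, limma) or Cmpk2 (adjusted p = 0.0611, limma), and neither was called without mouse CR90. The count was 1 without recipient 3, where both lost their call (adjusted p = 0.0574 each, limma), or without any one of 9 primary tumors, which were tumor 3 of mouse C117, tumor 2 of D14, tumors 1 and 2 of D206, tumor 5 of C395, tumor 1 of D254 and the tumors of C393, D203 and E93. Stat2 (-0.74 ± 0.20, adjusted p = 0.0571), Irf7 (-1.78 ± 0.67, 0.247), Ifit3 (-1.51 ± 0.56, 0.233), Gbp2 (-1.76 ± 0.62, 0.201), Cxcl10 (-1.47 ± 0.61, 0.322) and Psmb8 (-0.30 ± 0.52, 0.962) did not pass limma's threshold.

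The unsorted transplants of the 2 mice of origin differed from each other. In 31 of 35 genes both CR115 recipients were higher than both CR90 recipients, none was lower in both, and 4 overlapped (Eif2ak2, Irf9, Psmb8 and Tap1). Over all 15128 genes 30.7% were higher and 39.5% lower in this way, so a lack of overlap between 2 recipients of each mouse was itself common. The median difference of the members was 1.24, against 0 over all genes, and the largest was 3.25, in Usp18, with 1 mouse on each side and no test. Irf7 had 6.45 and 6.05 in the CR90 recipients and 9.33 and 8.68 in the CR115 recipients. Ifit1 and Usp18 were at the floor in both CR90 recipients. Bst2 had 6.34 and 5.93 against 9.07 and 8.34. Psmb8 overlapped between the recipients of both mice, at 9.39, 8.95, 9.21 and 9.33.

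Single tumors were also followed through transplantation. As a gauge, the 2 arrays of the CR115 primary tumor differed by up to 1.04 in a single member (median 0.50). From the CR115 primary to its recipients the list mean went from 9.25 to 8.17 and 7.80, with 33 and 34 of 35 genes lower and Trim30a lowest of all (-2.86 and -3.45). The median member differences were -1.17 and -1.56, against 0 over all genes, of which 45.6% and 45.7% were higher. In sorted cells of tumor 1 of mouse D279 the mean went from 9.42 at passage 2 to 8.01 at passage 4, with all 35 genes lower and Trim30a by -3.99 (51.7% of all genes were lower, and the medians were -1.28 and -0.03). From sorted tumor 4 of mouse F433 to its passage 1 the mean went from 7.80 to 8.13, with 27 genes higher against 45.2% of all genes. The median member difference was 0.24. Its median absolute value of 0.28 was smaller than the 0.50 between the 2 arrays of the CR115 tumor. Each of these is 1 sample against 1 sample with no test. Tumor 1 of mouse D279 was also measured unsorted: the mean was 9.16 there and 9.42 in its sorted passage 2, with Cxcl10 higher by 3.77 and Bst2 different by -1.58 in the sorted cells. The median member difference there was 0.18.

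Sorted transplants lay above unsorted transplants, although the calls rested on the CR90 recipients. In this comparison 17 of 35 genes were higher and none lower, where 5.90% of all genes were higher and 11.6% lower (17.5% in all), and the median difference was 1.37 against -0.01. Cxcl10 differed most: the sorted transplants had 8.28, 10.41 and 11.52 as lowest, median and highest, and the unsorted ones 5.28, 5.00, 6.81 and 6.56. These ranges did not overlap, and the difference was 4.27 ± 0.71 (adjusted p = 3.1e-05, limma). With 1 of the 4 unsorted values at the floor its size is uncertain, and it ran from 3.55 with a floor of 100 to 4.95 without mouse CR115. Trim30a (3.08 ± 0.85, adjusted p = 0.00902), Gbp2 (2.64 ± 0.72, 0.00839), Rsad2 (2.35 ± 0.74, 0.0231) and Gbp3 (2.10 ± 0.67, 0.0246) rose next in size in limma. Xaf1 (2.00), Rtp4 (1.97), Zbp1 (1.94), Ifit3 (1.84), the ADP-ribosyltransferase Parp14 (1.79) and Stat2 (0.80) rose as well, while Irf7 (1.86 ± 0.78, adjusted p = 0.0865) and Psmb8 (-0.10 ± 0.60, 0.942) did not pass. In 6 members the groups did not overlap (Cxcl10, Cmpk2, Dtx3l, Oasl1, Parp14 and Zbp1, all higher in sorted transplants), against 5.06% of all genes higher and 11.4% lower without overlap, and the smallest gap was 0.04, in Oasl1. Leaving out the recipients of mouse CR90 reduced the 17 calls to 1, leaving out recipient 1 alone reduced them to 9, and leaving out the CR115 recipients gave 19. No mouse gave both sorted and unsorted transplants. Of 14 macrophage and myeloid markers 2 rose (Cd14 and Fcgr1), with summed linear intensities of 1865 to 32445 in sorted and 4112 to 5442 in unsorted transplants, and their part was not tested.

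The difference of the transplant effects, sorted minus unsorted, asked whether transplantation acted differently on the samples of both kinds. No member passed limma's adjusted threshold (31 higher and 0 lower at an unadjusted p under 0.05, against 3.09% and 4.78% of genes), while 0.0132% and 0.0727% of all genes were called higher and lower (0.0859% in all). The median was 2.00 against 0.01 over all genes, and 34 of 35 values were positive. Gbp2 had 3.16 ± 0.82 (adjusted p = 0.111, limma) and Irf7 2.65 ± 0.88 (adjusted p = 0.255, limma). Without tumor 1 of mouse F433 3 members were called, and without recipient 3 there was 1.

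The genes upstream of the response did not rise together in tumors against glands, where 29.5% of all genes rose and 21.6% fell. Of 6 tested interferon ligand genes (19 listed), Ifna4 rose by 0.55 ± 0.23 (adjusted p = 0.0372, limma) from a gland range of 5.00 to 5.46 to a tumor range of 5.00 to 6.56, which lies near the floor. Ifnb1, an early type I interferon, had a tumor median of 5.63 and a gland median of 5.80 (difference -0.10 ± 0.28, adjusted p = 0.79, limma) and was called in no comparison. Ifng was not among the genes tested. Of 6 receptor genes Il10rb rose by 0.73, and Ifngr2 and Ifnlr1 fell by 1.52 and 0.58, whereas Ifnar1 (-0.29 ± 0.15) and Ifnar2 (0.25 ± 0.21) did not pass. Among 8 kinases and factors, Irf3 and Tyk2 rose by 0.95 and 0.53, and Irf1, Jak1 and Jak2 fell. Irf1, a factor strongly induced by interferon gamma, was at 10.45 to 11.45 in the glands and 8.18 to 9.93 in the tumors, without overlap, and fell by 1.66 (SE 0.27, adjusted p = 1.6e-06, limma). In sorted tumors Irf1 was at 9.86 to 11.05 and rose over unsorted tumors by 0.96 (adjusted p = 0.00196, limma), and sorted transplants exceeded unsorted ones in Irf1 by 2.04 (adjusted p = 8.47e-05, limma). These comparisons share groups.

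Of 13 sensors and adaptors 5 rose and 2 (Cgas and Myd88) fell in tumors, shares near those over all genes (38.5% against 29.5% and 15.4% against 21.6%), with a median of 0.08 against 0.10. The largest rise was that of the double-stranded RNA receptor Tlr3 (2.08 ± 0.34, adjusted p = 2.11e-06, limma). Of 6 feedback inhibitors 4 fell, including Socs3 by 1.53 and Socs1 by 0.60, and Pias4 rose. Class I antigen presentation was one-sided: 9 of 10 genes rose and none fell, with Tap2 at 2.10 ± 0.40 (adjusted p = 2.52e-05, limma), H2-D1 at 1.07, Erap1 at 0.75 and B2m at 0.74. In sorted against unsorted tumors 6 of these 10 fell and none rose, where 15.7% of all genes fell and 9.64% rose. Tap2 was at -1.67 ± 0.35 there (adjusted p = 0.000361, limma). Among 12 genes induced by interferon gamma, Ciita rose by 0.77 and Gbp6, Cxcl9 and Cd274 fell by 1.54, 1.39 and 0.84. Over the means of 14 mice the gamma target list correlated with the 35 members at r = 0.95 (rho 0.94, and 0.95 without the 2 farthest mice), and the class I list at r = 0.87 (rho 0.87, 0.83). The correlation was 0.74 for the sensors and adaptors (rho 0.75, 0.59 without the 2 farthest mice), 0.55 for the kinases and factors (rho 0.52), -0.13 for the ligands (rho -0.10), -0.05 for the macrophage markers (rho -0.12), 0.64 for the epithelial markers (rho 0.61) and -0.55 for the fibroblast markers (rho -0.56). Without the 2 farthest mice the epithelial value was 0.76 and the fibroblast value -0.49. The receptors had 0.12 (0.56 without the 2 farthest mice) and the feedback inhibitors -0.42 (-0.59). The other cell type lists lay at -0.36 to -0.11, and at -0.73 to 0.20 without the 2 farthest mice. The spike-in signal, which is no property of the tumors, correlated at 0.32 (0.65 without the 2 farthest mice). These are descriptions over unsorted primary tumors on shared array scaling.

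The glands differ from tumors in their other cells. In unsorted primary tumors against glands all 7 fibroblast and all 7 endothelial markers fell, as did 4 of 9 T and NK cell and 4 of 6 B and plasma cell markers. The summed linear intensity of the fibroblast markers was 17768 to 28944 in glands and 409 to 25755 in tumors, and that of the endothelial markers 2352 to 4680 and 398 to 1434. Of the macrophage markers 1 rose and 3 fell, which is 7.14% and 21.4%, against 29.5% and 21.6% of all genes. The share that fell was 100% in the fibroblast and endothelial lists. It was 66.7% in the B and plasma cell list and 44.4% in the T and NK cell list. The part of these cells in the fall of Cxcl10 and in the rises of the other members was not tested.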

How the data were processed

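Per the labels' protocols, RNA was taken up in Trizol, cleaned on columns and made into biotinylated cRNA. The authors deposited 1 linear intensity per probe set and array; their summarization and scaling are not given in the sources used here. The table holds 45101 probe sets, of which 64 controls and 1 with 2 broken values were left out. Intensities under 32 were set to 32, which touched 37.4% of values, and log2 was taken. Gene symbols were those of the platform annotation, brought up to date by Entrez identifier for 34740 probe sets; 34944 had 1 symbol, 932 several and 9160 none. A gene's brightest single-symbol probe set stood for it, and 16 members had several. Tested genes (15128 of 18192) exceeded the 40th percentile on at least 4 arrays.

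A single limma model (version 3.58.1, R 4.3.3; lmFit, eBayes) covered the 6 groups, and the mouse of origin entered as a random block at a correlation of 0.358. Because the block weights mice, fitted differences need not equal differences of means. Benjamini-Hochberg adjusted p-values, over every gene tested, were called under 0.05. The 2 arrays of the primary tumor of mouse CR115 (r = 0.987 across genes, median absolute difference of the members 0.50, largest 1.04) were averaged. Separate tumors are replicates, but the sorted transplants include passages 2 and 4 of tumor 1 of mouse D279. The unsorted transplants are 2 recipients each of mice CR90 and CR115. The p-values measure the spread between these samples, which in the transplant groups is not a spread between independent tumors only. The fit was tested on simulated data.

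The members and the pathway and marker lists were chosen with earlier results of these data known. Called members were named where 10 or fewer in a comparison, otherwise the 10 largest differences, with Irf7, Stat2, Ifit3, Gbp2, Psmb8 and Cxcl10 added. Of these added genes, Stat2 and Psmb8 were left out for sorted transplants against sorted primaries. Only Gbp2 and Irf7 were given for the difference of transplant effects. For pathway lists up to 4 called genes were named, with Irf1, Ifnb1, Ifnar1, Ifnar2 and Socs1 added in tumors against glands. Other genes were named after their values were seen. Lists are described by counts and medians and were given no test. Members vary together, so their signs and calls are not independent of each other. Alternatives covered the floor, normalization, probe set rule, filter, block, samples in the fit, spike-in signal, Gapdh ratio and each replicate. A further one left out the hyperplastic cells of mice G376 and F493 together. Leaving out mice CR90, CR115 or F433 was added after seeing the data. Figures and promoter searches used Python 3.11.15, pandas 2.3.3, numpy 2.4.6 and matplotlib 3.10.9.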

Additional observations from a re-analysis of the deposited data

Results flagged for a closer look

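Of 179 checks for a single replicate far from the rest of its group, 5 met Dixon's criterion, where chance alone gives about 1 in 20. In sorted hyperplastic cells the value of Cxcl10 in mouse H464 was 9.28, below the nearest value of 10.43. In sorted primary tumors the other 4 were all highest values of tumor 1 of mouse F433. They were Ifit3 at 9.78 (nearest 8.16), Psmb8 at 10.52 (nearest 8.55), Psmb9 at 9.98 (nearest 7.95) and Cxcl10 at 11.71 (nearest 9.77).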

How the results depend on the processing

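Of the 17 members called in unsorted tumors against glands, 14 kept their call in all 9 other settings, 14 in all 27 fits without 1 replicate, and 13 in both; of 4 called in sorted against unsorted tumors 2 did (Bst2 and Cxcl10), of 2 called in unsorted transplants 0, and of 17 in sorted against unsorted transplants 1 (Cxcl10). Without the mouse block (no replicate block), the number called was 19 in tumors against glands, 6 in sorted against unsorted tumors, 5 in unsorted transplants against primaries, 20 in sorted against unsorted transplants and 8 in the difference of transplant effects. In unsorted transplants against primaries the count was 0 with a floor of 100 or 16, and 1 with quantile normalization, with the mean of a gene's probe sets, with no filter or with spike-in signal as a covariate. It was 0 without mouse CR90 and 5 without mouse CR115. For sorted against unsorted transplants it was 6 with the groups of the comparison alone and 1 without mouse CR90. Without mouse F433 it was 11 in sorted against unsorted tumors and 3 in the difference of transplant effects, which had 11 without mouse CR115. The cause was not tested. Without 1 replicate the counts ran from 0 to 0 in sorted tumors against hyperplasia and in sorted transplants, 14 to 20 in tumors against glands, 3 to 10 in sorted against unsorted tumors, 0 to 3 in unsorted transplants, 9 to 18 in sorted against unsorted transplants and 0 to 3 in the difference of effects. With the mean of its probe sets Eif2ak2 turned from 0.77 to -0.21 in sorted against unsorted transplants (adjusted p = 0.393, limma). Values near the floor of 5 limit Ifit1, Usp18, Bst2, Cxcl10 and the interferon ligands.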
